A study of Homo sapiens with 12 samples.

Results

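Cytosolic ribosomal protein mRNAs were followed in U2OS cells, a human osteosarcoma line obtained from ATCC, in 12 RNA sequencing libraries. The mRNAs were the rows of the count table named RPL or RPS with a number and an optional A or X, together with RPLP0, RPLP1, RPLP2, RPSA and FAU. There were 78 such genes among 58684 rows. They encode 32 proteins of the small (40S) ribosomal subunit and 46 of the large (60S) subunit. Numbered pseudogene copies and paralogs with other names were left out by this rule.

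The cells stably carried either eIF4E-Flag, the cap-binding translation initiation factor with an epitope tag, or the vector. The labels give no clone numbers, times or further treatment. Total RNA (input) and RNA from an antibody pull-down of capped RNA (Cap IP) were sequenced from each, which gave 4 groups of 3 libraries: eIF4E Cap IP, eIF4E input, vector Cap IP and vector input. The study asked whether eIF4E raises the steady-state level of m7G caps. Nothing in the labels says that libraries of a group came from separate cultures, so p-values here measure only the spread between these libraries.

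Ribosomal proteins are made in near-equal numbers and built with the rRNAs into the 2 subunits. Their mRNAs are the textbook example of TOP mRNAs, which begin with a C followed by an unbroken run of pyrimidines right behind the m7G cap. The kinase mTOR controls the translation of these mRNAs through the start of the mRNA, where both eIF4E and LARP1, a repressor that holds the cap and the tract, can bind.

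The start of the mRNA is the site that a cap antibody reads, so the 30 bases around the annotated start are shown for members on which the results turn. The first 6 lines are the members called higher in Cap IP in both kinds of cell. RPLP0 and RPSA, with negative log2 Cap IP over input in eIF4E cells, follow, and RPS29 and RPS4X stand for starts without the motif. Capitals mark a C followed by at least 4 bases that are each C or T, beginning within 5 bases of the annotated start on the transcribed strand. The base at position 16 of each line is the annotated start, and sequences and positions are from the RefSeq promoter table on GRCh38.p14.
RPS25: tctgagcagcgcttcCTTTTTgtccgacat
RPL26: aagcagcgtgtagttCTCTTCCCTTTTgcg
RPS24: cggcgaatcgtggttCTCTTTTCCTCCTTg
FAU: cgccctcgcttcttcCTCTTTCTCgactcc
RPL36: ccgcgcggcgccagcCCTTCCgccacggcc
RPS28: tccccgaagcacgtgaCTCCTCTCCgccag
RPLP0: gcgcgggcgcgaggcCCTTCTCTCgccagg
RPSA: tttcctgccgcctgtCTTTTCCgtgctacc
RPS29: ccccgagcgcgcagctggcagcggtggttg
RPS4X: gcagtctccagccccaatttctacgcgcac

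These windows lie on the plus strand for RPS24 (chr10:78033848-78033877), RPL36 (chr19:5690280-5690309), RPS28 (chr19:8321481-8321510) and RPSA (chr3:39406705-39406734). They lie on the minus strand for RPS25 (chr11:119018329-119018358), RPL26 (chr17:8383179-8383208), FAU (chr11:65122120-65122149) and RPLP0 (chr12:120201097-120201126). RPS29 (chr14:49598696-49598725) and RPS4X (chrX:72277234-72277263) are also on the minus strand. Each spans 15 bases of flanking sequence and the first 15 bases of the annotated 5′ exon. The table held 63 of the 78 members, and RPL5, RPS2, RPL8, RPL23A and RPS15A were among those not matched. Of the 63 matched genes, 54 (85.7%, exact 95% interval 74.6 to 93.3%) had a start with the motif, against 6886 of 27305 genes (25.2%) in the whole table. The interval treats genes as independent draws, although the matched members are not a random sample. In RPS25, RPL26, RPS24, FAU, RPL36, RPLP0 and RPSA the C is the annotated start base itself, and in RPS28 it is the next base. RPS15, called higher in Cap IP in vector cells, also had no match. A match is a run of letters in this window, and neither a match nor its absence tells which start these cells use.

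Libraries held 1206321 to 1813486 counts. Levels are given in CPM, counts scaled to a common library size with TMM, edgeR's correction for a few dominant RNAs. At this depth a count of 3 was worth 1.16 to 3.09 CPM, depending on the library. EIF4E itself averaged 26.7 ± 2.31 CPM in eIF4E Cap IP, 13.3 ± 1.72 in eIF4E input, 15.2 ± 3.29 in vector Cap IP and 6.82 ± 2.45 in vector input (SD, n = 3 each). In each kind of library all 3 eIF4E values lay above all 3 vector values. Among markers of a mesenchymal line, VIM averaged 719 to 997 CPM and SPARC 222 to 345 CPM over the groups. COL1A2 (2 counts over all libraries) and TWIST1 (0 counts) were at or near 0, and the blood cell marker PTPRC had 1 count or none in a group.

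No source used here states the strand on which reads were counted, although the labels name a kit that marks strand. MT-ND6, the mitochondrial mRNA encoded on the strand opposite to the others, averaged 5719 CPM in eIF4E Cap IP and 3832 CPM in eIF4E input, and 4034 CPM in vector Cap IP and 4442 CPM in vector input. MT-CO1 averaged 165 CPM in eIF4E Cap IP and 1335 CPM in eIF4E input, and 112 CPM in vector Cap IP and 1055 CPM in vector input. RPL35 held 5289 counts over all libraries, while WDR38, whose exons overlap it by 11 bases on the other strand, held 31785. RPS25 held 7625 counts and CCDC84, opposite over 47 bases, held 11841. RPL36A held 10 counts and GLA, opposite to it, held 57. These 3 were the opposite rows with more counts than the member, of 21 opposite rows in the table, and the other 18 had no more than theirs. An opposite row meets the member only where their exons overlap, so this tally does not settle the strand. Whether a count of a ribosomal protein row is of the mRNA's own strand therefore cannot be told, and its part in the results below was not tested. All values below are those of the rows, whichever strand was counted.

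Ribosomal protein rows together took between 1.60 and 3.15% of a library's counts. In eIF4E Cap IP the shares were 1.60, 2.01 and 2.01%, and in eIF4E input they were 2.48, 2.54 and 3.15%. In vector Cap IP they were 2.40, 1.87 and 2.69%, and in vector input 2.41, 2.52 and 1.89%. The 3 shares of eIF4E Cap IP lay below all 3 of eIF4E input, and those of the vector groups overlapped. The order turned with the scaling. Summed TMM-scaled levels were 22883, 28013 and 23605 CPM in eIF4E Cap IP, against 16719, 18184 and 26805 CPM in eIF4E input. They were 31685, 27778 and 30047 CPM in vector Cap IP, against 19517, 19628 and 14206 CPM in vector input, with no overlap. The 20 most abundant rows took 26.2 to 32.0% of counts in Cap IP libraries and 13.5 to 17.4% in input libraries, and the TMM factors were 0.673 to 0.894 in Cap IP and 1.18 to 1.48 in input.

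**Figure D1:**
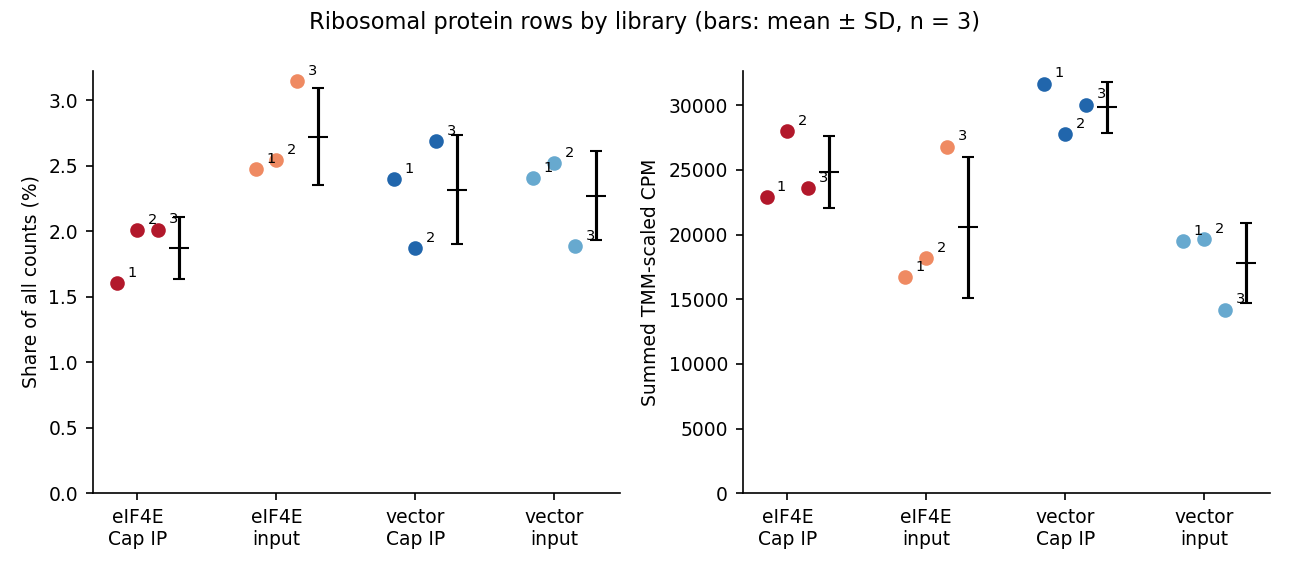
Share of all counts (left, %) and summed TMM-scaled CPM (right) of the ribosomal protein rows, 1 point a library labelled by its replicate number, with mean ± SD of 3 as black bars. On the left eIF4E Cap IP lies below eIF4E input, on the right its mean is above. Replicate 3 is the highest of the eIF4E input libraries and the lowest of the vector input libraries on both scales.

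Levels per kilobase of canonical mRNA differed widely between members. In vector input the highest mean level was that of RPS29 (995 CPM per kilobase), which rested on 1 library, and RPS24 (873), RPS2 (773), RPL19 (726) and RPL8 (717 CPM per kilobase) were also near the top. At the lower end stood RPL22 (8.24), RPS15A (5.36), RPS10 (3.63), RPL17 (2.28), RPL36A (1.38) and RPL39 (1.34 CPM per kilobase). RPL39, a small protein of the exit tunnel, had 13 counts over all libraries, RPL36A 10, RPS10 38 and RPL17 47. These 4 were too low to be tested, and the other 74 members entered the tests among 12460 genes. RPS10, RPL17 and RPL36A share exons on the same strand with readthrough rows RPS10-NUDT3, RPL17-C18orf32 and RPL36A-HNRNPH2, each listed at 0 counts. How reads on shared exons were assigned is not known here, so these low counts need not mean low levels of the mRNA.

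In eIF4E cells, 7 of the 74 tested members were higher in Cap IP than in input and none was lower ("called" below, that is an edgeR adjusted p under 0.05 over all tested genes). They were RPS25, RPL26, RPS24, RPL36, RPL5, RPS28 and FAU. This was 9.46% of the members, against 21.9% called higher and 23.3% called lower among all tested genes. The median of the members was 0.28 on the log2 scale and 62 of them were positive, while the median of all tested genes was -0.13. With TMM replaced by total counts, the median of all genes moved to -0.97 and that of the members to -0.54. No member was then called higher and 26 were called lower, against 1120 of the 12460 tested genes higher and 5805 lower. Relative to the median of all genes, the members then stood 0.43 higher, against 0.41 higher with TMM. Other library sizes shift all genes by about the same amount, so this gap could hardly change and is no check of the scaling. The count of members called higher also hung on single libraries. It was 4 without eIF4E Cap IP 1, 3 without eIF4E Cap IP 2, 4 without eIF4E input 1, 2 without eIF4E input 2 and 17 without eIF4E input 3. In the same order 2326 of 13412, 2286 of 13397, 2474 of 13094, 2312 of 13200 and 2645 of 13303 genes were called higher.

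RPS25, a 40S protein at the subunit head, had 593, 665 and 611 CPM in eIF4E Cap IP, against 211, 205 and 328 CPM in eIF4E input. Each Cap IP library lay above each input library. The log2 difference was 1.33 ± 0.27 (SE, edgeR adjusted p = 0.00059), and with total counts as library sizes it was 0.52 (adjusted p = 0.0856). RPS25 is also the member whose opposite row CCDC84 held more counts, and CCDC84 was 2.62 ± 0.37 higher in Cap IP (edgeR adjusted p = 2.2e-05).

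RPL26, a 60S protein at the exit site, had 290, 283 and 288 CPM in eIF4E Cap IP, against 149, 94.4 and 173 CPM in eIF4E input. Its groups did not overlap, and the log2 difference was 1.05 ± 0.28 (edgeR adjusted p = 0.0044). RPS24, a 40S protein mutated in Diamond-Blackfan anaemia, had 789, 967 and 912 CPM in Cap IP, against 440, 420 and 576 CPM in input, again with no overlap, and differed by 0.89 ± 0.27 (edgeR adjusted p = 0.0119). RPS25 and RPL26 were still called when any of the 6 libraries compared was left out, and RPS24 in 5 of 6 cases.

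FAU encodes the 40S protein eS30 behind a ubiquitin-like leader. It had 220, 280 and 223 CPM in eIF4E Cap IP, against 101, 162 and 182 CPM in eIF4E input, which did not overlap (log2 0.70 ± 0.27, edgeR adjusted p = 0.0383). RPL36, RPS28 and RPL5 had log2 differences of 0.80, 0.76 and 0.77, with edgeR adjusted p of 0.0382, 0.0298 and 0.0418. RPL5 carries 5S rRNA into the 60S subunit together with RPL11. FAU was called in 1 of the 6 fits that left out a library, and RPL36, RPS28 and RPL5 in 2 each. Under total counts FAU, RPL36, RPS28 and RPL5 changed sign, to -0.11, -0.01, -0.04 and -0.09.

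In vector cells, 28 of the 74 members were higher in Cap IP than in input and none was lower. This was 37.8% of the members, against 18.5% called higher and 21% called lower among all tested genes. The median of the members was 0.65 and 73 were positive, with a median of -0.05 over all tested genes. The libraries of a title stem deviated together in vector cells, and with the stem as a replicate block 47 members (63.5%) were called higher, against 23.2% of all genes called higher and 25.6% lower. With total counts 2 members were called higher and 1 lower, against 774 of all 12460 tested genes higher and 4949 lower. The members' median was then -0.07, and the median of all genes was -0.76. The members then stood 0.69 above it, against 0.70 with TMM, a gap that other library sizes could again hardly move. Without vector input 3 the count was 14 higher and 1 lower, against 1950 of 12991 genes higher and 2107 lower.

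The members with the largest differences in vector cells were RPS25, RPL26, RPL36, FAU, RPS28 and RPS21. RPS25 had 764, 623 and 844 CPM in vector Cap IP, against 227, 258 and 201 CPM in vector input. RPL26 had 322, 274 and 382 CPM in vector Cap IP, against 103, 145 and 114 CPM in vector input. Neither overlapped, and they differed by 1.70 ± 0.27 and 1.43 ± 0.28 (edgeR adjusted p = 0.0001 and 0.00049). With total counts they were the 2 members still called, at 1.00 and 0.73.

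RPL36, a 60S protein, had 575, 612 and 507 CPM in vector Cap IP, against 250, 279 and 148 CPM in vector input. FAU had 275, 304 and 282 CPM in vector Cap IP, against 115, 130 and 100 CPM in vector input. RPS28, a 40S protein mutated in Diamond-Blackfan anaemia, had 207, 267 and 269 CPM in vector Cap IP, against 116, 107 and 90.9 CPM in vector input. In all 3 the Cap IP libraries were the higher ones, with log2 differences of 1.32 ± 0.31, 1.32 ± 0.27 and 1.24 ± 0.28 (edgeR adjusted p = 0.0023, 0.00082 and 0.0017).

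Further down the order, RPS21 differed by 1.20 ± 0.31 and RPL27A by 1.14 ± 0.28 (edgeR adjusted p = 0.0048 and 0.0034). RPS2, which lines the mRNA entry site of the 40S subunit, had 1555, 1551 and 1701 CPM in vector Cap IP, against 780, 811 and 600 CPM in vector input (1.13 ± 0.27, edgeR adjusted p = 0.0026). RPS14, whose loss underlies the anaemia of 5q- syndrome, had 582, 538 and 660 CPM in vector Cap IP, against 257, 314 and 258 CPM in vector input (1.10 ± 0.27, edgeR adjusted p = 0.0029). In eIF4E cells RPS2 and RPS14 had log2 values of 0.45 and 0.35 and were not called.

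**Figure D2:**
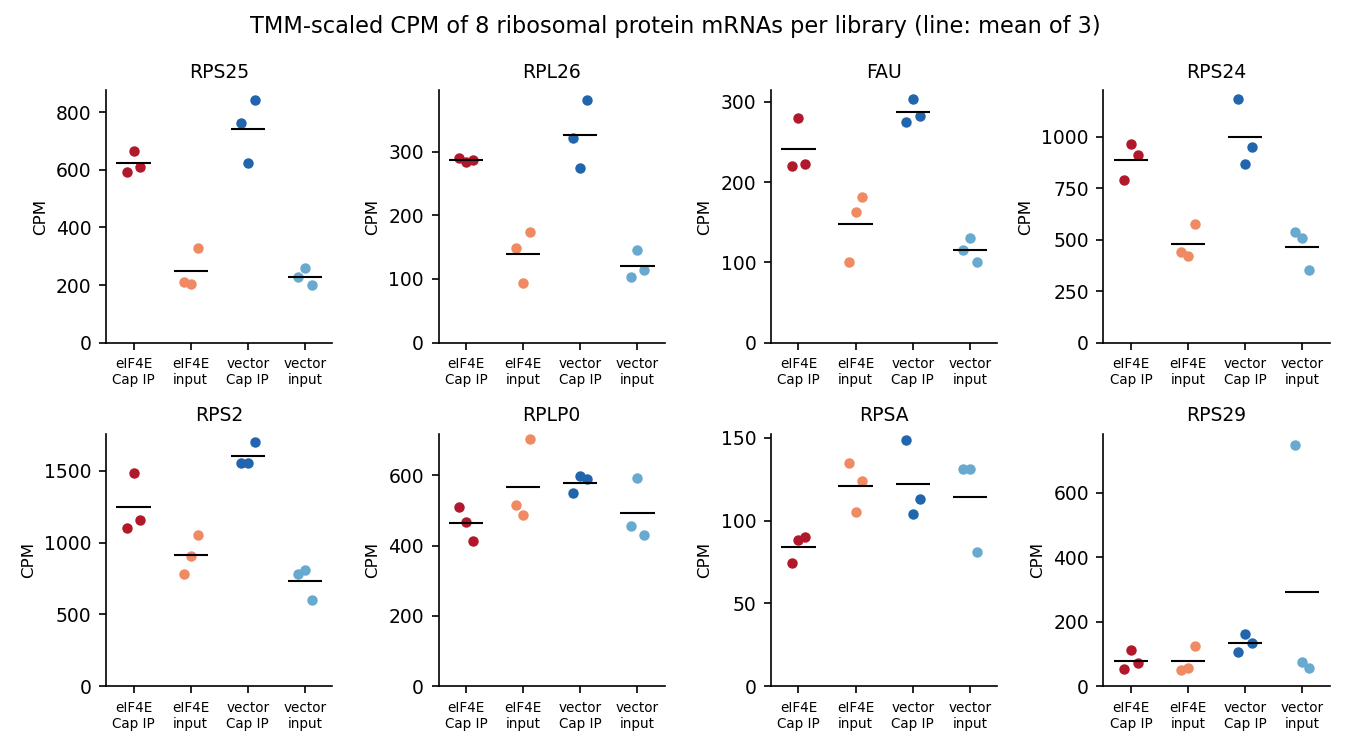
TMM-scaled CPM of 8 members in each library (points) with the mean of 3 (line), eIF4E Cap IP, eIF4E input, vector Cap IP and vector input from left to right. RPS25, RPL26, FAU and RPS24 are higher in Cap IP in both kinds of cell, RPS2 is called in vector cells, RPLP0 and RPSA are not called, and RPS29 has 1 vector input library at 748 CPM.

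Of the 7 members called in eIF4E cells, 6 were also called in vector cells, 85.7% of the first list and 21.4% of the second. The exception, RPL5, had 215, 177 and 126 CPM in vector Cap IP, against 122, 127 and 74.7 CPM in vector input (log2 0.68 ± 0.30, edgeR adjusted p = 0.0772). Over the 74 members, the log2 Cap IP over input in eIF4E cells and that in vector cells had r = 0.68 and rho = 0.67, against r = 0.86 and rho = 0.87 over 12460 genes. These are descriptions across genes, which are not independent, and the 4 groups share 1 scaling.

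**Figure D3:**
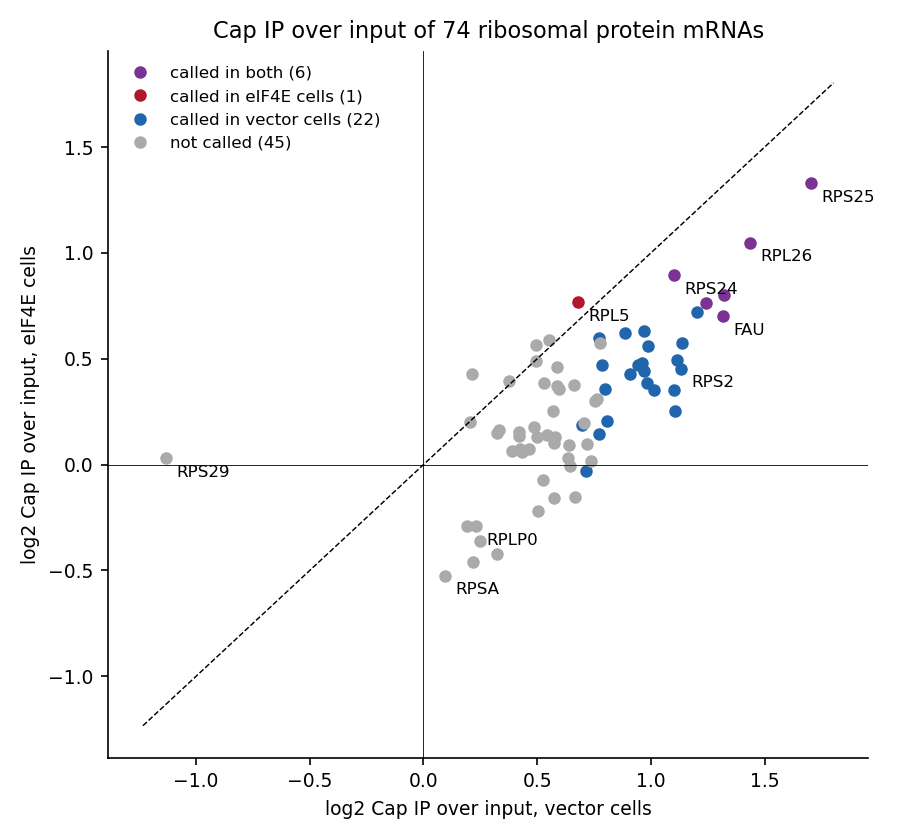
Log2 Cap IP over input of the 74 tested members in eIF4E cells (vertical) against vector cells (horizontal), coloured by the cells in which the member was called, with the line of equality dashed. RPS25 and RPL26 lie farthest up in both, 67 of the 74 members lie below the line, and RPS29 lies apart at -1.13 in vector cells.

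The P stalk, the arm of the 60S subunit that recruits elongation factors, was mixed. RPLP2 had 155, 140 and 135 CPM in vector Cap IP, against 78.6, 86.5 and 59.3 CPM in vector input, and was called there (log2 0.94 ± 0.26, edgeR adjusted p = 0.0073). RPLP1 and RPLP0 had log2 values of -0.22 and -0.29 in eIF4E cells and 0.51 and 0.23 in vector cells, none of them called. RPLP0 had 511, 469 and 414 CPM in eIF4E Cap IP and 516, 486 and 703 CPM in eIF4E input, which overlapped.

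RPSA, the laminin receptor and a 40S protein, had the lowest value in eIF4E cells. It had 74.4, 88.1 and 90.4 CPM in eIF4E Cap IP, against 135, 105 and 124 CPM in eIF4E input. The groups did not overlap, yet the log2 difference of -0.52 ± 0.27 was not called (edgeR adjusted p = 0.121). RPS4X, an X-linked 40S protein with a Y-linked copy in the genome, had -0.46 ± 0.25 (edgeR adjusted p = 0.138), and RPL3 and RPL8 of the 60S core had -0.42 and -0.36. RPSA and RPS4X were called lower where the fit held only the groups compared, and where genes needed 50 counts in 3 libraries.

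RPS19, the member most often mutated in Diamond-Blackfan anaemia, had 1424, 1346 and 1626 CPM in vector Cap IP, against 762, 865 and 633 CPM in vector input, with no overlap (log2 0.96 ± 0.28, edgeR adjusted p = 0.0109). In eIF4E cells it had 0.48 ± 0.28 (edgeR adjusted p = 0.171). RPL11, which with RPL5 binds MDM2 under ribosome stress, was called in vector cells (0.79 ± 0.29, edgeR adjusted p = 0.0396) and had 0.47 in eIF4E cells. RPS6, the S6 kinase substrate downstream of mTOR, had 0.37 in eIF4E cells and 0.59 in vector cells, neither called. RPS23 of the decoding centre had 0.38 and 0.66, and RPL10 near the peptidyl transferase centre had 0.36 and 0.60 in eIF4E and vector cells, none called.

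The 2 subunits gave like counts. Of 31 tested 40S members 4 were called higher in eIF4E cells and 12 in vector cells, with medians of 0.20 and 0.64. Of 43 tested 60S members 3 and 16 were called, with medians of 0.31 and 0.68. Members that host snoRNAs in their introns (26 tested) had medians of 0.17 in eIF4E cells and 0.59 in vector cells, with 1 and 6 called. The 48 other members had medians of 0.33 and 0.71, with 6 and 22 called. The difference between these subsets was not tested. Log2 Cap IP over input and canonical mRNA length had r = -0.10 in eIF4E cells and 0.03 in vector cells over the 74 members. For mean log2 CPM r was -0.01 in eIF4E cells and 0.34 in vector cells over the members, again as a description across genes. Over all 12460 tested genes it was 0.33 in eIF4E cells and 0.35 in vector cells. The part of abundance in the members' standing above all genes was not tested.

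Whether eIF4E changed the Cap IP over input value was tested as the difference of the differences. No member was called, nor was any of the 12460 genes (0% in each direction). With the title stem as a replicate block again no member was called, against 51 genes higher (0.409%) and 0 lower. Without that block the median of the members was -0.45, against 0.02 for all tested genes, and 67 of 74 members were below 0. The SDs of the members' median level between libraries, added as squares over the 4 groups, came to 0.50. This figure ignores the pairs and is not a standard error of the median difference. The smallest p-values belonged to RPS3, a 40S protein at the mRNA entry, with -0.82 ± 0.38, and RPL18, with -0.85 ± 0.40 (unadjusted p under 0.05 in these 2, edgeR adjusted p = 0.832 in both). Of all 12460 tested genes 734 had an unadjusted edgeR p under 0.05. DESeq2 also called none, with 8 members at an unadjusted p under 0.05.

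The median difference moved with the input libraries. By pairs of libraries with a shared title stem, the median member had a log2 Cap IP over input of 0.49, 0.64 and -0.20 in eIF4E cells and 0.67, 0.41 and 0.97 in vector cells. In eIF4E cells the matching of libraries rests on the titles alone, since their deviations had correlations of only 0.35, 0.08 and 0.11. Over all tested genes the medians were -0.14, -0.12 and -0.09 in eIF4E cells and -0.05, -0.12 and -0.06 in vector cells. The pairs numbered 3 stood apart in opposite directions, with the highest eIF4E input and the lowest vector input levels. Without these 2 input libraries, a choice made after seeing the data, 21 members (28.4%) were called higher in eIF4E cells, against 21.1% of all genes. In vector cells 19 members (25.7%) were called higher and 1 lower, against 16.6% of all genes higher and 17.4% lower. The medians were then 0.53 and 0.52, and the median difference was -0.09.

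**Figure D4:**
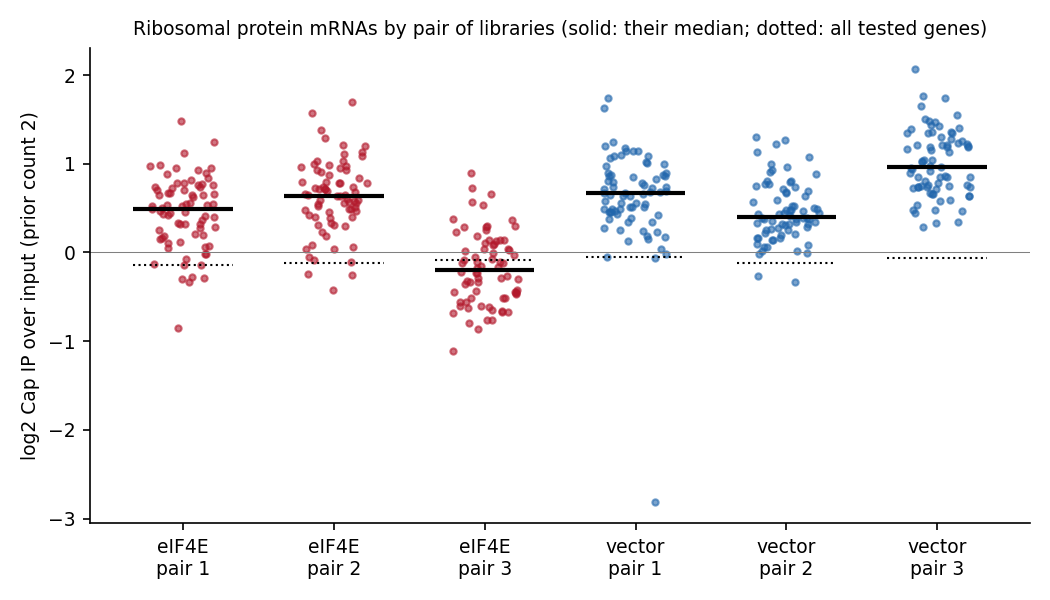
Log2 Cap IP over input of the 74 members in each pair of libraries with a shared title stem, eIF4E pairs left and vector pairs right. Points are members, solid lines their median and dotted lines the median of all tested genes. The eIF4E pair 3 has a median of -0.20 and the vector pair 3 one of 0.97, while the dotted lines stay between -0.14 and -0.05.

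Between eIF4E and vector cells, no member was called in input, where 0.104% of genes were called higher and 0.425% lower. The median was 0.20 with 57 of 74 members positive (edgeR, 3 at an unadjusted p under 0.05, and 0 called by DESeq2 with 7 at that level). Of all 12460 tested genes 1681 were at that level with edgeR. Without eIF4E input 3 the median was -0.01, and without both input libraries numbered 3 it was -0.17. RPL35, of the exit site, had 212, 256 and 407 CPM in eIF4E input and 255, 165 and 85.1 CPM in vector input, which overlapped (log2 0.80). It is also the member whose opposite row WDR38 held more counts. RPL7A had 472, 500 and 753 CPM in eIF4E input, against 422, 371 and 261 CPM in vector input, with no overlap (0.71).

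RPS29, a small zinc-binding 40S protein, had the largest value in input but rested on 1 library. It had 51.1, 57.5 and 123 CPM in eIF4E input and 748, 75.5 and 56.8 CPM in vector input. The count in that vector library was 1180, against 144 and 137 in the other two. The log2 value was -1.92 ± 0.64 (edgeR adjusted p = 0.182), and without that library it was 0.23 ± 0.39 (adjusted p = 0.887). Cap IP over input of RPS29 in vector cells was -1.13 with it and 1.02 without it.

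In Cap IP, again no member was called between eIF4E and vector cells, where 0.0803% of genes were called higher and 0.144% lower. With the shared title tag as a replicate block, again no member was called, against 73 genes higher (0.586%) and 82 lower (0.658%). Without the block the median was -0.26 and 7 of 74 members were positive, against a median of -0.01 over all genes. With edgeR 3 members had an unadjusted p under 0.05, against 1146 of all 12460 tested genes. DESeq2 called 0 members, with 5 at that level. RPL23A, of the exit site, had 164, 169 and 137 CPM in eIF4E Cap IP, against 233, 294 and 218 CPM in vector Cap IP (log2 -0.66). RPL35A had 130, 79.5 and 65.1 CPM in eIF4E Cap IP, against 168, 140 and 145 CPM in vector Cap IP (-0.72). Both were lower in each eIF4E library, and neither passed the adjustment over all genes.

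**Figure D5:**
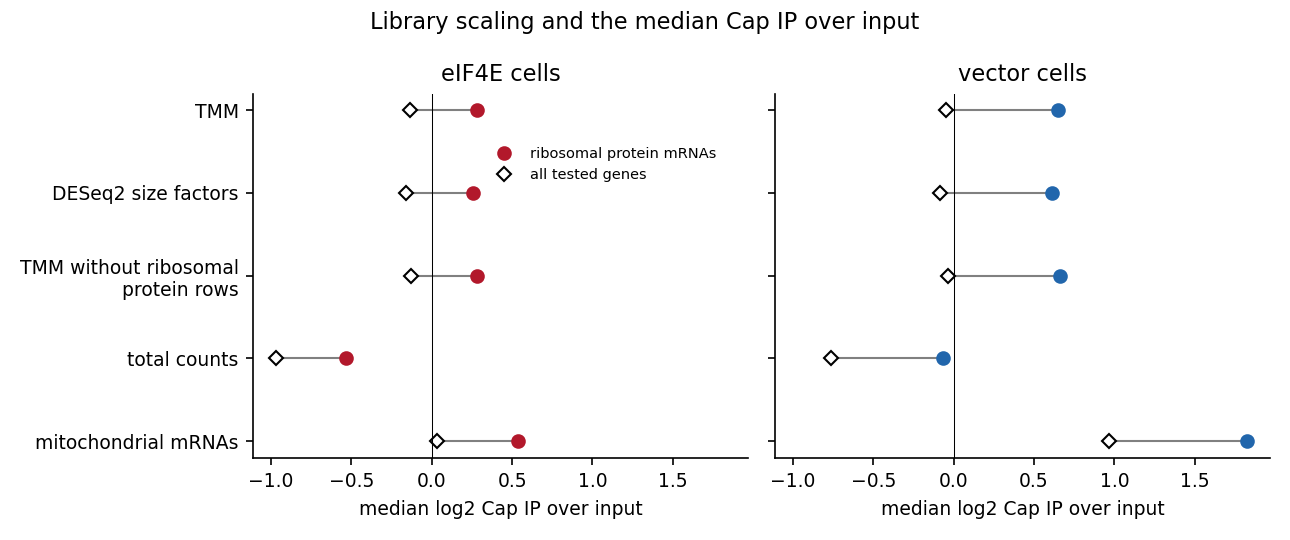
Median log2 Cap IP over input of the 74 members (filled) and of all tested genes (open) under 5 ways to scale libraries, eIF4E cells left and vector cells right. Both medians move together, and the members stay above all genes by 0.41 to 0.50 in eIF4E cells and 0.69 to 0.86 in vector cells. Library sizes shift all genes by about the same amount, so this gap is nearly fixed in advance and is no check of the scaling.

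Other TOP mRNAs outside the ribosome gave mixed calls. Of 19 tested, 5 (26.3%) were higher and 2 lower in Cap IP in eIF4E cells, and 4 (21.1%) higher and 1 lower in vector cells, with medians of 0.16 and 0.44. These shares stood near the 21.9% and 18.5% of all genes called higher. With total counts none was higher, and 7 and 4 were lower, against 5805 and 4949 of all 12460 tested genes lower. The medians of the list were then -0.71 and -0.28. With mitochondrial sizes none was called in eIF4E cells, and 6 were higher and none lower in vector cells. Of all 12460 tested genes 846 were then higher and 707 lower in eIF4E cells, and 2904 higher and 552 lower in vector cells. EIF3L, a subunit of initiation factor eIF3, was 1.27 ± 0.26 higher in eIF4E cells and 0.93 ± 0.26 in vector cells (edgeR adjusted p = 0.00057 and 0.0076). NACA, which shields nascent chains, was higher by 0.95 and 0.97, and its partner BTF3 by 0.74 and 0.98. The nucleolar chaperone NPM1 was higher by 1.69 in eIF4E cells and had 0.91 in vector cells, not called. EEF2, the translocation factor, went the other way, with 440, 553 and 542 CPM in eIF4E Cap IP, against 1232, 1449 and 1745 CPM in eIF4E input. EEF2 was called lower in eIF4E cells (-1.53 ± 0.28, edgeR adjusted p = 0.0002) and in vector cells (-0.92 ± 0.27, adjusted p = 0.0111). With mitochondrial sizes it was not called and had -1.24 in eIF4E cells and 0.16 in vector cells. With total counts BTF3 turned to -0.10 in eIF4E cells, and none of EIF3L, NACA, BTF3 and NPM1 was called in either kind of cell.

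Of 16 tested regulators of TOP mRNA translation, 5 (31.2%) were lower in eIF4E cells and 4 (25.0%) in vector cells, against 23.3% and 21% of all tested genes, and none was higher. With library sizes from mitochondrial mRNAs 2 were lower in eIF4E cells and 2 higher in vector cells. Of all 12460 tested genes 707 and 2904 were then called in these directions. MTOR, the kinase, had 8.05, 5.68 and 6.80 CPM in eIF4E Cap IP, against 96.8, 60.4 and 53.5 CPM in eIF4E input. LARP1 had 40.2, 56.8 and 50.5 CPM in eIF4E Cap IP, against 204, 271 and 246 CPM in eIF4E input. Neither overlapped, and log2 values were -3.35 and -2.29 in eIF4E cells and -2.77 and -1.96 in vector cells. RPTOR, the mTOR complex partner, and TSC1, a repressor of mTOR, were also lower in both. With mitochondrial sizes MTOR and TSC1 were called lower in eIF4E cells. LARP1 and RPTOR were not called there (-1.99 and -1.72), and in vector cells none of the 4 was, with -1.79 for MTOR, -0.89 for LARP1, -0.65 for TSC1 and -0.0061 for RPTOR. Among 6 tested chaperones of ribosomal proteins, BCCIP (1.59) and NAP1L1 (1.36) were higher in eIF4E cells and NAP1L1 (1.06) in vector cells, and with total counts neither was called.

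Mitochondrial ribosomal proteins, which build a separate ribosome from nuclear genes, numbered 61 tested. Of these 10 (16.4%) were higher and 2 lower in eIF4E cells, and 13 (21.3%) higher and 2 lower in vector cells, with medians of 0.04 and 0.56. The shares higher stood near those of all genes. MRPL34 was higher by 1.19 ± 0.27 in eIF4E cells and 1.12 ± 0.27 in vector cells, and MRPL48 by 1.70 ± 0.40 and 1.65 ± 0.40 (edgeR adjusted p = 0.0017, 0.0027, 0.0020 and 0.0028). With total counts the list had 1 higher and 25 lower in eIF4E cells and 0 higher and 7 lower in vector cells, with medians of -0.80 and -0.17. Of all 12460 tested genes 5805 and 4949 were then lower. Of 6 tested paralogs of the members, RPS27L was higher by 1.05 in eIF4E cells and 0.87 in vector cells, and RPL36AL by 1.06 in vector cells, and none of the paralogs was called higher with total counts. None of these lists had a call between eIF4E and vector cells or in the difference of the differences.

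Pseudogene copies of the members formed 1004 rows with 10823 counts, 2.57% of the 421117 counts of the members themselves. No source used here states how reads that match several copies were treated. Of 20 tested pseudogene rows, 5 were higher and 7 lower in Cap IP in eIF4E cells, and 4 higher and 10 lower in vector cells, with medians of -0.52 and -1.15, and 1 row was called higher in eIF4E input than in vector input. With total counts 1 was higher and 12 lower in eIF4E cells and 1 higher and 11 lower in vector cells, and with mitochondrial sizes the vector median was -0.042. Exons opposite to another gene occurred in 26 members, and of the 50 tested members without one, 3 were called higher in eIF4E cells and 19 in vector cells, with medians of 0.20 and 0.65. The opposite rows themselves (18 tested) had a median of 0.81 in each kind of cell, with 9 and 8 called higher and 0 and 2 called lower. With total counts the median of the opposite rows was -0.0062 in eIF4E cells and 0.089 in vector cells. Then 5 and 3 were called higher, and 3 were called lower in each kind of cell. For comparison with both lists under TMM, 21.9% of all tested genes were called higher and 23.3% lower in eIF4E cells. In vector cells these shares were 18.5% and 21%. With total counts 1120 of the 12460 tested genes were higher and 5805 lower in eIF4E cells, and 774 and 4949 in vector cells.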

How the data were processed

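The authors deposited raw counts, 1 row a gene symbol and 1 column a library. Per the submitters' processing notes, STAR 2.5.1b, featureCounts 1.4.5-p1, DESeq2 and GRCh38.p5 were used. No source used here gives the strand setting, the annotation release or the treatment of multiple matches. Counts were analysed with edgeR 4.0.16 and limma 3.58.1 in R 4.3.3. Genes passing filterByExpr (12460) were scaled by TMM and fitted with quasi-likelihood as 4 group means over 12 libraries, and p-values were adjusted by Benjamini-Hochberg over all of them. Ratios per pair of libraries used log2 CPM with a prior count of 2. No row lacked a gene name. Overlaps, lengths and snoRNAs came from GENCODE release 44, and 33472 rows matched by symbol and 1660 by an older symbol. The ribosomal protein rows, their roles and the comparison lists were chosen with earlier results of these data known. Members named were those with fixed roles, the 6 called ones with the largest change in each comparison and direction (all called, then smallest p up to 4 in all, where fewer passed), the extremes per kilobase and up to 4 genes a list. A few members that these rules name are not reported here.

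Title stems shared by input and Cap IP were checked as pairs by the correlation of deviations from group means. It was 0.43, 0.27 and 0.44 in vector cells, taken as paired, and 0.35, 0.08 and 0.11 in eIF4E cells. For tags shared by eIF4E and vector titles it was 0.20, 0.16 and 0.31 in Cap IP, taken as paired, and 0.18, 0.013 and -0.036 in input. Alternatives were other scalings, filters, tests and left-out libraries. Floors cover counting error only, and the interval on the motif share treats genes as independent draws.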

Additional observations from a re-analysis of the deposited data

Results flagged for a closer look

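RPL8, a 60S protein, had a log2 Cap IP over input of -0.80 to -0.10 in the 3 eIF4E pairs of libraries and 0.036 to 0.73 in the 3 vector pairs. Every eIF4E pair was below 0 and every vector pair above it, which is what drew attention. RPLP0 of the P stalk showed the same split, with -0.76 to -0.013 in eIF4E pairs and 0.014 to 0.45 in vector pairs. It depends on the scaling. With total counts as library sizes, RPL8 had -1.26 to -1.07 in eIF4E pairs and -0.85 to 0.16 in vector pairs, and RPLP0 had -1.23 to -1.02 in eIF4E pairs and -0.92 to -0.12 in vector pairs, so the vector pairs were no longer all above 0. The split itself was not tested, while the fitted difference over all libraries was -0.61 ± 0.41 for RPL8 and -0.52 ± 0.37 for RPLP0, neither of them called by edgeR. In both genes the pairs numbered 3, with the input libraries that stand apart, are the most extreme on each side. RPL8 and RPLP0 were picked for this split in the same data. The eIF4E pairs are matched by title alone and were not taken as paired. In 16 of the 74 tested members all eIF4E pairs lay below all vector pairs, and in none did they lie above. The fitted difference was below 0 in 67 of the 74 members, so its direction is not particular to RPL8 and RPLP0. How many of all genes separate in this way was not counted, so the 16 cannot be read as a result about the members.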

How the results depend on the processing

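In eIF4E cells, the 7 members higher and 0 lower in Cap IP became 0 and 26 with total counts (median -0.54). With total counts 1120 of all 12460 tested genes were higher and 5805 lower. Members called higher were 0 with library sizes from mitochondrial mRNAs, 2 with no filter, and 12 of 72 with 50 counts in 3 libraries, where 2 were lower. In these fits 846 of 12460, 2463 of 33699 and 1631 of 5491 genes were called higher, and 1792 lower in the last. There were 3 higher among the 50 tested members without opposite exons, against 21.9% of all tested genes. With the title stem as replicate block 16 (21.6%) were higher, against 26.1% of all genes. Without both input libraries numbered 3, 21 (28.4%) were higher, against 21.1% of all genes. DESeq2 called 1 lower (RPS4X), the fit of only the groups compared 2 (RPSA, RPS4X), and added pseudogene counts 2 (RPS10, RPL17). Of all tested genes 2882 of 33696, 2873 of 10475 and 2894 of 12443 were called lower in these fits. Leaving out each library gave 2 to 17 higher, while 2286 to 2645 of all tested genes were called higher in those fits.

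In vector cells, the 28 higher and 0 lower became 2 and 1 with total counts (median -0.068). With the replicate block 47 (63.5%) were higher, against 23.2% of all genes. With total counts 774 of all 12460 tested genes were higher and 4949 lower. The members' median was 1.83 with mitochondrial sizes. RPS29 was the 1 member lower with no filter, without vector input 3 and without both input libraries numbered 3, and pseudogene counts made 2 lower (RPL17, RPL36A). In these fits 3379 of 33699, 2107 of 12991, 2228 of 12821 and 2613 of 12443 genes were called lower. Leaving out each library gave 14 to 31 higher and 0 to 1 lower. The lowest, 14, came without vector input 3, where 1950 of 12991 genes were higher. The highest, 31, came without vector Cap IP 2, where 1883 of 13428 genes were higher.

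With mitochondrial sizes the median difference was -1.35 and the median in Cap IP -0.91. Between eIF4E and vector input, 1 member was lower with no filter, against 181 of 33699 genes. The median there turned to -0.17 without both input libraries numbered 3, and to -0.012 without eIF4E input 3 (range -0.012 to 0.33 over single libraries). No alternative called a member in the difference or in Cap IP, the replicate block included, which called 51 genes higher and 0 lower in the difference. Outside the 20 most abundant rows the shares were 2.61, 3.19, 3.27 and 2.71% in eIF4E Cap IP, eIF4E input, vector Cap IP and vector input. The motif at the start base alone was in 74.6% of matched members.

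Under total counts the eIF4E value turned negative for RPL5 (-0.089), FAU (-0.11), RPL36 (-0.012) and RPS28 (-0.042), which had been called. It turned and was called lower for RPL15 (-0.73), RPL29 (-0.70), RPS3A (-0.70), RPS18 (-0.77), RPL10A (-0.72), RPL7A (-0.79), RPL23A (-0.70), RPL19 (-0.66), RPL27 (-0.76), RPL13A (-0.71) and RPL28 (-0.67), among others. In vector cells RPS9 turned to -0.0046. Of other values of the single members reported here, 135 lost and 99 gained a call over all alternatives. Why values moved was not tested. At 1206321 to 1813486 counts a library, RPL39, RPL36A, RPS10 and RPL17 could not be tested.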
